A study of Ogataea haglerorum with 3 samples.

Results

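Each of the 7 chromosomes of Ogataea haglerorum had a single long stretch without annotated genes, and 242 of the 5345 annotated genes lay beside these stretches. They were found by sorting the genes of each chromosome by position and taking the 1 gap of over 8000 bases between neighbours. A gene was counted as a flanking gene when any of its bases lay within 30 kb of either gap edge. The rule used positions only and no measured level. Levels were set against 4711 comparison genes, which lie over 50 kb from the chromosome ends and outside the flanks.

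The cells were haploid yeast of the strain Phaff 81-453.3, which belongs to a clade of methylotrophic yeasts, and were cultured at 30 °C in YPD, a rich medium with glucose. An overnight culture of 16 h was diluted and regrown to log phase, with OD600, the optical density, between 0.8 and 1.2. There was 1 group of 3 polyadenylated RNA libraries, named replicates 1, 4 and 5, all of the same strain and medium and with no treatment or second condition. The labels do not tie each library to a culture of its own, so the SDs below may be technical.

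The nuclear chromosomes of budding yeasts carry a single centromere each, the site on which the kinetochore assembles to attach the chromosome to the spindle. Centromeric DNA in yeasts usually holds no protein-coding genes. No label, file header or table used here says what the long gaps hold, and this was not tested. The gene IDs are paired with no names or functions in the files or in the RefSeq gene table, so genes are given by ID and position in the authors' coordinates, whose genome build is not given in the sources used here. Levels are given in TPM, a count divided by the length of the gene and scaled so that every library has the same sum.

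The gaps measured 8018 to 10766 bases. On chromosome 1 the gap ran from 384032 to 393885, on chromosome 2 from 960147 to 970101, on chromosome 3 from 905327 to 914393 and on chromosome 4 from 848676 to 856693. On chromosome 5 it ran from 898751 to 908634, on chromosome 6 from 620775 to 629828 and on chromosome 7 from 639975 to 650740. The next longest distance between neighbours on the same chromosome was 2329 bases on chromosome 3 at the least and 4872 bases on chromosome 6 at the most. The gaps of chromosomes 1 and 6 were centred at 40.7% and 41.3% of the way to the last annotated base, and the other gaps between 66.4% and 72.5%. Between 32 and 39 flanking genes lay around each gap, 121 on the left sides and 121 on the right sides. The genes facing each other across the gap were divergent, with both transcribed away from it, on chromosomes 2, 5, 6 and 7. They were convergent on chromosomes 1 and 4, and both on the minus strand on chromosome 3.

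**Figure D1:**
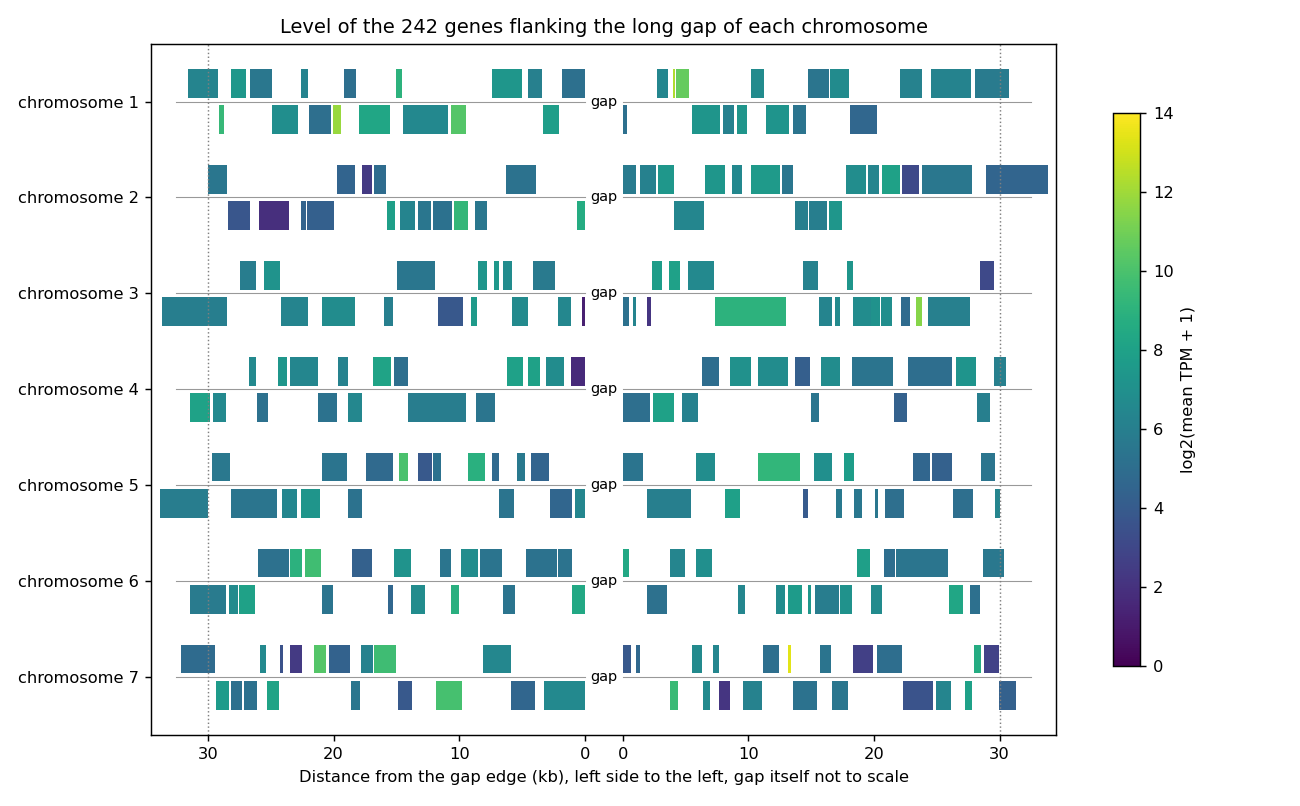
Flanking genes of each chromosome drawn to scale by distance from the gap edge (kb, left side to the left), plus-strand genes above the line and minus-strand genes below it, coloured by log2(mean TPM + 1). The dotted lines mark the 30 kb limit; genes of every level lie side by side along the flanks, and 2 of the darkest boxes touch a gap, on the left side of chromosomes 3 and 4.

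The flanks held fewer bases in genes than the chromosome farther out, and their genes stood farther apart. The median distance from a gene to its right-hand neighbour was 257 bases for 235 flanking genes, the long gaps left out, and 105 bases for 4711 comparison genes. Spacings of over 1000 bases made up 26 of 235 in the flanks (11.1%) and 47 of 4711 among comparison genes (0.998%). The flanks thus held 26 of the 73 such spacings that lay over 50 kb from the chromosome ends. Each of the 7 chromosomes had between 2 and 6 of them in its flanks.

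The spacing changed with distance from the gap. The median spacing was 353 bases for genes 0 to 5 kb from the gap, 542.5 at 5 to 10 kb, 182 at 10 to 20 kb and 251.5 at 20 to 30 kb. Beyond the flanks it was 141 bases at 30 to 50 kb, 117 at 50 to 100 kb and 103 over 200 kb away. Genes covered 70.2% of the bases in the first 5 kb, 68.1% from 5 to 10 kb and 80% from 20 to 30 kb, against 88.5% from 50 to 100 kb. The number of genes per 10 kb moved less, from 6.57 in the first 5 kb to 5.57 at 20 to 30 kb and 6.27 at 50 to 100 kb. A gap edge is by definition the edge of a gene. Every flank thus starts with a gene at distance 0, which raises the number and cover of genes in the first 5 kb. Median gene length was 1164 bases in the flanks and 1188 bases among comparison genes.

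The median spacing was wider on every chromosome, both flanks pooled, and in each arrangement of neighbours. By single flank it exceeded that of the chromosome's comparison genes in 14 of 14, but on the left of chromosome 6 it was 110 bases, against 108 bases for comparison genes. The median by chromosome was 203 to 499 bases in the flanks and 94 to 114.5 bases among comparison genes, with no overlap between these 2 ranges of chromosome medians. Divergent pairs stood 324.5 bases apart in the flanks and 148.5 apart among comparison genes. Pairs on the same strand stood 338 and 134 bases apart, and convergent pairs 64 and 38 bases. The shares of the arrangements were close, with 26.4% divergent pairs in the flanks and 27.7% among comparison genes. On the upstream side of a gene, where its promoter lies, the median spacing was 328 bases in the flanks and 141 bases among comparison genes, the long gaps again left out. These are descriptions of the authors' annotation, and no test over samples applies to them.

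**Figure D2:**
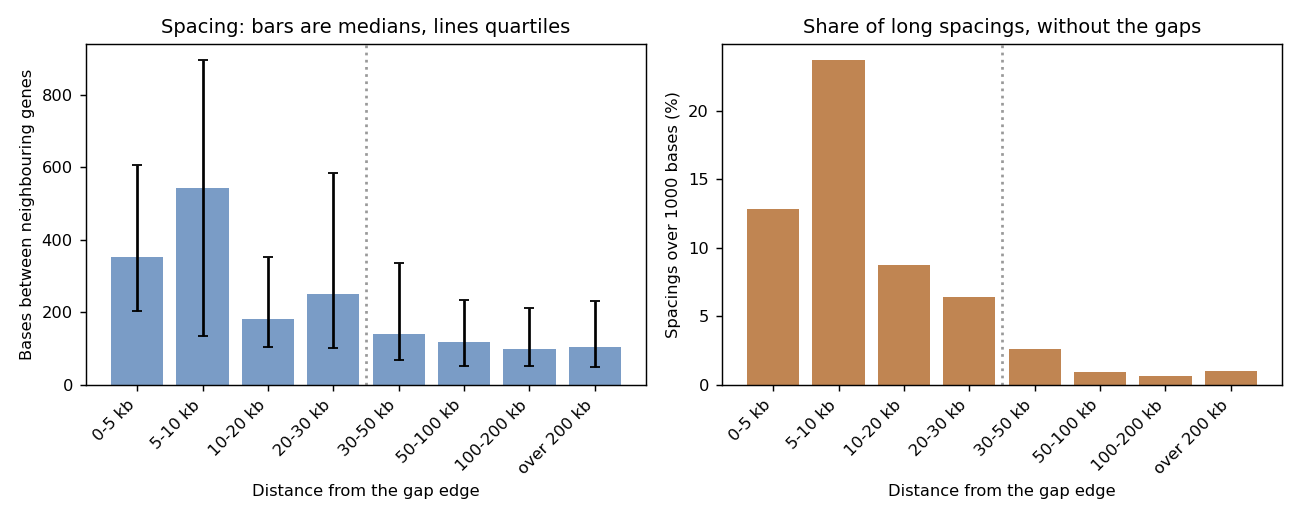
Distance between neighbouring genes by distance from the gap edge (kb), with the 7 long gaps left out; the left panel shows the median in bases with quartiles as lines, and the right panel the share of spacings over 1000 bases in percent. Both are highest at 5 to 10 kb, at 542.5 bases and 23.7%, and at 100 to 117 bases and 0.672% to 1.02% beyond 50 kb.

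The longest of these further spacings was on chromosome 2 at 956235 to 959558, with 3324 bases, so that the gene KL911_002358 (959559 to 960146) stood alone between it and the long gap. This spacing did not have the same length in the ASM1920728v1 assembly. Spacings of 2412 bases on chromosome 1 at 394216 to 396627 and 2395 bases on chromosome 7 at 652117 to 654511 also lay within the first 5 kb. Another of 2447 bases lay on chromosome 6 at 639572 to 642018. Of the 26 long spacings, 18 had the same length in that assembly, 4 did not and 4 could not be looked up.

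The flanks also stood out in the gene IDs. The annotation has 44 genes whose ID is not a locus tag, and 43 of them were flanking genes, 29 on chromosome 4 and 14 on chromosome 5. All 44 formed 1 unbroken block around each gap, from 814797 to 882930 on chromosome 4 and from 889444 to 925324 on chromosome 5. The remaining 199 flanking genes matched locus tags of the ASM1920728v1 assembly, and 186 of these had the same gene length there. Neighbours within a flank had the same spacing in that assembly for 174 of 228 pairs, not the same spacing for 12 and no match for 42. Among comparison genes 4669 of 4711 pairs had the same spacing. The genes beside the gap stood equally far apart there on chromosome 2 and could not be matched on chromosomes 4 and 5. On chromosomes 1, 3, 6 and 7 they did not have the same spacing there. Whether those genes are neighbours in that assembly is not given here. The 43 genes without a locus tag had 67.4 ± 3.03 TPM in the median (SD, n = 3 libraries), against the 24 others in the flanks of these 2 chromosomes with 45.4 ± 0.842 TPM. Of the 43, 29 lay on chromosome 4, and of the 24 others 21 lay on chromosome 5, whose flanks had the lower median of these 2 chromosomes, and the part of the chromosome in this difference was not tested.

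The summed gene counts of replicates 1, 4 and 5 were 34047362, 44734719 and 34526996. The median flanking gene had 2686.5, 3616.5 and 2850 counts in these libraries, and the median comparison gene 2304, 2969 and 2310. Counting error was thus small for most members: 235 of 242 had over 100 counts in each library and none had a count of 0. A minimum of 10 counts in every library was reached by 241 of 242 flanking genes (99.6%, exact binomial interval 97.7% to 100%), where the share over all genes was 96.7%. It was 98% among comparison genes. The interval covers the number of genes only.

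The level of the flanking genes was somewhat above that of the comparison genes. Their median was 70.6, 70.8 and 68.4 TPM in replicates 1, 4 and 5, and the comparison median was 55.7, 53.7 and 55.2 TPM. On the log2(TPM + 1) scale, which understates differences of low genes, the medians differed by 0.34 ± 0.04 (SD, n = 3), and the difference was positive in 3 of 3 libraries. The SD covers the spread between libraries and not the spread between genes. The middle 50% of flanking genes ended at 148 TPM and that of comparison genes at 129 TPM, so the distributions overlapped widely. Of the 242 genes, 57% lay above the median of comparison genes. An exact sign-flip test over 3 libraries cannot give a p below 0.25, libraries of 1 group sample no second condition, and genes are not replicates, so no p-value is given for any level set against another.

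The size of this difference depended on which genes were compared. Among genes with an upstream spacing of over 200 bases it was 0.14 ± 0.06. The median was 57.2 ± 3.55 TPM in 60 flanking genes and 50.6 ± 1.12 TPM in 2964 comparison genes with an upstream spacing of up to 200 bases. From 200 to 400 bases the medians were 64.5 ± 1.59 TPM in 74 flanking genes and 66.4 ± 0.556 TPM in 1075 comparison genes. From 400 to 800 bases they were 84.3 ± 4.76 TPM in 51 flanking genes and 62.8 ± 0.466 TPM in 541 comparison genes. Over 800 bases they were 78.2 ± 2.71 TPM in 48 flanking genes and 90.6 ± 4.38 TPM in 131 comparison genes. The sign of the difference thus changed between these classes, and in both sets genes with over 800 bases upstream had a higher median than those with up to 200 bases. Its part in the level difference was not tested.

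Level was not an even function of distance from the gap. The Spearman rank correlation of level with distance was -0.10 ± 0.003 over the 242 flanking genes (SD, n = 3). It was 0.0035 ± 0.0039 on the left sides and -0.206 ± 0.0044 on the right sides. By chromosome it was -0.52 ± 0.02 on chromosome 2 and between -0.10 and 0.08 on the others. The 46 genes 0 to 5 kb from a gap had a median of 67.3 ± 0.853 TPM, the 38 at 5 to 10 kb 106.6 ± 1.90 TPM, the 80 at 10 to 20 kb 67.0 ± 0.0241 TPM and the 78 at 20 to 30 kb 55.7 ± 2.88 TPM (SD, n = 3). Farther out the medians were 60.3 ± 1.27 TPM at 30 to 50 kb, 48.2 ± 2.61 TPM at 50 to 100 kb and 55.2 ± 0.999 TPM over 100 kb away. Against the comparison genes the log2 differences of the 4 flanking classes were 0.29 ± 0.04, 0.94 ± 0.03, 0.28 ± 0.03 and 0.02 ± 0.08. The last was within its SD of 0 and changed sign without replicate 5. At 5 to 10 kb, 76.3% of the genes lay above the comparison median, and both sides were high, with 107.7 ± 2.22 TPM on the left and 99.2 ± 2.95 TPM on the right. The sides differed farther out. At 10 to 20 kb the median was 44.0 ± 1.52 TPM on the left and 95.2 ± 4.98 TPM on the right, and at 20 to 30 kb it was 75.4 ± 4.70 TPM on the left and 43.3 ± 1.02 TPM on the right. The class at 5 to 10 kb is also the one with the widest spacing and the highest share of long spacings.

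**Figure D3:**
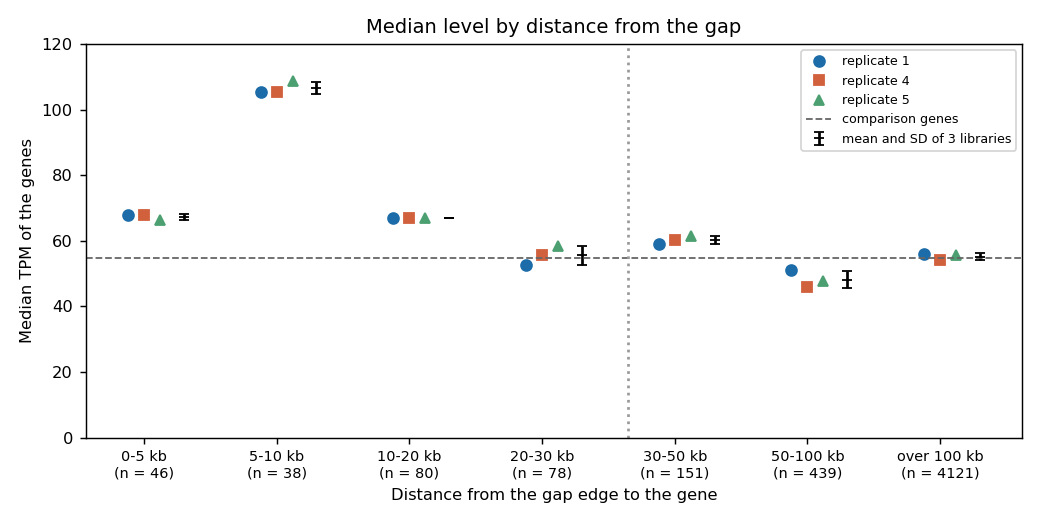
Median TPM of genes by distance from the gap edge (kb), one point per library, with the mean and SD of the 3 libraries beside them; the dashed line is the comparison genes at 54.9 TPM and the dotted line the 30 kb limit. The class at 5 to 10 kb stands at 105.5, 105.5 and 108.8 TPM, and the classes from 20 kb outward have means of 48.2 to 60.3 TPM.

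The 14 genes that touch a gap had a lower median than the genes next to them. By mean TPM the gene beside the gap was lower than the next gene in 9 of 14 flanks and higher in 5, among them both flanks of chromosome 6. The median of the 14 was 37.8, 38.5 and 42.8 TPM in replicates 1, 4 and 5, a log2 difference of -0.46 ± 0.10 from comparison genes (SD, n = 3). The genes in place 2 counted from the gap had a median of 64.3 ± 2.56 TPM, those in place 3 a median of 74.7 ± 2.26 TPM and those in place 4 one of 141.0 ± 12.4 TPM, with 14 genes in each place. In places 5 to 10 the medians were 103.4, 89.4, 154.7, 71.5, 59.7 and 85.1 TPM, so the level rose and fell from place to place. By mean TPM, 9 of the 14 genes beside a gap lay below the comparison median and 5 above it.

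The gap-side genes also differed by orientation. The 5 that are transcribed toward the gap ranged from 2.23 to 36.4 TPM with a median of 33.4, and 4 of these 5 lay between 32.5 and 36.4 TPM. The 9 transcribed away from the gap, whose upstream region is the gap itself, ranged from 1.34 to 387 TPM with a median of 84.9. The ranges overlapped, and 9 and 5 genes on 7 chromosomes are few.

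The highest of the 14 was KL911_002358 of chromosome 2 (959559 to 960146, minus strand), with 390, 405 and 365 TPM in replicates 1, 4 and 5. Across the gap, KL911_002359 on the plus strand at 970102 to 971139 had 48.6, 51.9 and 58.7 TPM, 7.29-fold less by the means. On chromosome 6 both facing genes were high. KL911_001942 at 619755 to 620774 had 350, 355 and 312 TPM and KL911_004746 at 629829 to 630356 had 360, 347 and 295 TPM, a ratio of 1.01, and in both genes replicate 5 was lowest. The facing genes of chromosome 1 were alike at a lower level. KL911_005097 at 382184 to 384031 had 31.3, 34.2 and 34.8 TPM, and KL911_005389 at 393886 to 394215 had 30.7, 26.7 and 44.4 TPM, with replicate 5 highest.

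On chromosomes 5 and 7, as on chromosome 2, the left gene was the higher one. gene_3620 at 897974 to 898750 had 78.3, 88.8 and 87.7 TPM and gene_3621 at 908635 to 910287 had 40.8, 42.7 and 40.5 TPM. KL911_005185 at 636705 to 639974 had 92.1, 94.0 and 98.0 TPM and KL911_004305 at 650741 to 651397 had 15.1, 11.5 and 13.2 TPM. In both pairs the 3 libraries of the left gene lay above all 3 of the right gene.

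On chromosomes 3 and 4 the left gene was the lowest of all members of its chromosome. KL911_000001, 210 bases long on the minus strand at 905117 to 905326, had 8, 13 and 10 counts in replicates 1, 4 and 5, or 1.17, 1.44 and 1.43 TPM. It was the lowest flanking gene of all. Across the gap, KL911_005380 at 914394 to 914876 had 34.9, 33.1 and 41.3 TPM. On chromosome 4, gene_2809 on the plus strand at 847560 to 848675 had 76, 118 and 80 counts, or 2.08, 2.45 and 2.15 TPM. gene_2810 across the gap at 856694 to 858892 had 32.6, 31.3 and 33.6 TPM, a 14.6-fold higher level by the means.

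**Figure D4:**
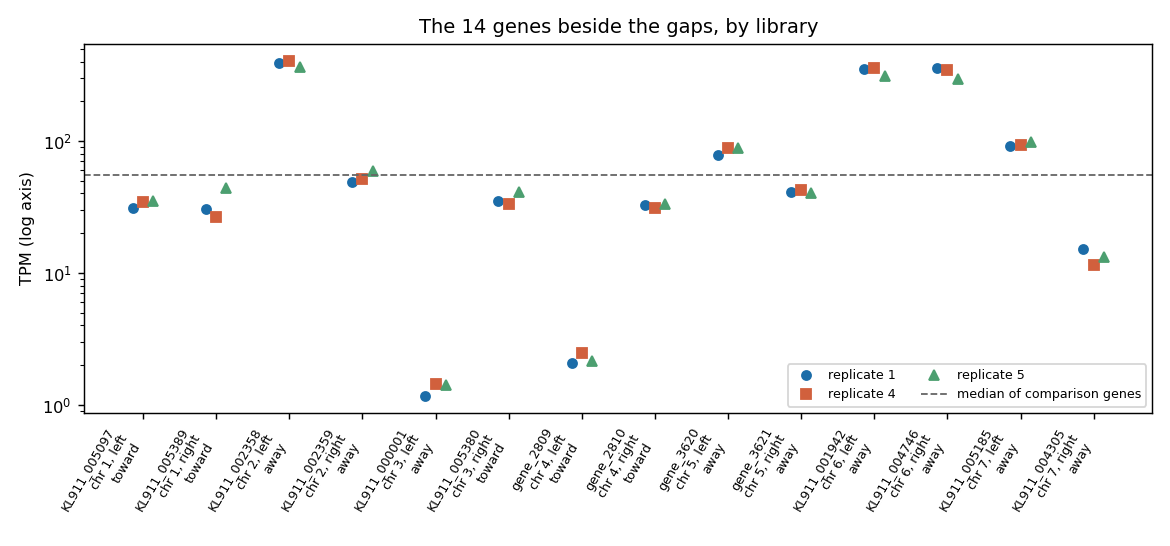
TPM (log axis) of the 14 genes that touch a gap in each of the 3 libraries, ordered by chromosome and side, with the direction of transcription relative to the gap; the dashed line is the median of comparison genes. The libraries of a gene lie close together beside the spread between genes, from 1.34 to 387 TPM by the means.

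The chromosomes did not share 1 pattern. Each was set against the comparison genes of the same chromosome, by the difference of log2 medians (SD, n = 3). With both flanks pooled, chromosome 6 was higher, with 93.0 ± 3.15 TPM against 54.9 ± 0.744 TPM and a difference of 0.75 ± 0.05. There the left flank had 53.0 ± 0.997 TPM and the right flank 96.8 ± 5.65 TPM, so only the right flank was higher. The flanks of chromosome 3 had 91.4 ± 2.52 TPM against 55.5 ± 0.625 TPM, a difference of 0.71 ± 0.05. Chromosome 1 followed with 89.4 ± 9.92 TPM against 57.6 ± 1.29 TPM and a difference of 0.62 ± 0.17. Chromosome 4 had 69.96 ± 2.54 TPM against 56.0 ± 0.744 TPM, a difference of 0.32 ± 0.04. The flanks were lower on chromosome 5, with 44.9 ± 0.933 TPM against 53.6 ± 1.40 TPM and a difference of -0.25 ± 0.01. Chromosome 2 had 52.4 ± 4.10 TPM against 57.4 ± 1.23 TPM, a difference of -0.13 ± 0.12, and chromosome 7 had 44.1 ± 2.70 TPM against 47.8 ± 1.81 TPM, a difference of -0.11 ± 0.07. Both are less than 2 SDs from 0. The order of chromosomes 6, 3 and 1 is not resolved, since their differences lie within the SD of chromosome 1.

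Single flanks varied further. By median the highest flank was the left one of chromosome 1, with 114.6 ± 17.2 TPM over 17 genes, where replicate 5 reached 134.4 TPM and the other libraries 103.8 and 105.6. The right flank of chromosome 6 followed with 96.8 ± 5.65 TPM and the right flank of chromosome 3 with 95.8 ± 3.38 TPM, which do not differ beyond their spread. The lowest was the left flank of chromosome 2, with 36.7 ± 2.76 TPM over 16 genes, of which 25% lay above the comparison median. The right flank of chromosome 7 had 40.4 ± 1.82 TPM and the left flank of chromosome 5 42.1 ± 2.12 TPM.

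Left and right flanks had medians of 62.7 ± 1.89 and 73.4 ± 2.45 TPM, a log2 difference of left minus right of -0.22 ± 0.08 (SD, n = 3). The difference rested on a few chromosomes: it was 0.078 without chromosome 2, -0.042 without chromosome 5 and -0.11 without chromosome 6. By chromosome, left minus right was -1.14 ± 0.07 on chromosome 2, -0.20 ± 0.01 on chromosomes 3 and 5 each, and -0.86 ± 0.08 on chromosome 6. It was 0.48 ± 0.15, 0.54 ± 0.10 and 0.49 ± 0.03 on chromosomes 1, 4 and 7. Left and right are only the direction of numbering on each chromosome.

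Strand made little difference. Median levels were 70.9 ± 1.39 TPM for the 123 plus-strand genes and 69.0 ± 3.14 TPM for the 119 minus-strand genes, a difference of 0.04 ± 0.09 on the log2 scale, within its SD. The 124 genes transcribed away from the gap had a median of 77.6 ± 2.83 TPM and the 118 transcribed toward it 65.6 ± 1.67 TPM, a log2 difference of 0.24 ± 0.02 (SD, n = 3). Without the 14 gap-side genes this fell to 0.16. By chromosome it ranged from 0.57 ± 0.13 on chromosome 1 to -0.87 ± 0.05 on chromosome 7, so the direction was not shared.

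Low genes were few in the flanks as a whole. A mean TPM under 5 was found for 7 of 242 (2.89%, exact 95% binomial interval 1.17% to 5.87%), where the share over all genes was 10.7%. Among comparison genes it was 378 of 4711 (8.02%). By distance the share was 6.52% at 0 to 5 kb, 2.63% at 5 to 10 kb, 1.25% at 10 to 20 kb and 2.56% at 20 to 30 kb. Of the 14 gap-side genes, 2 were in this class (14.3%). The interval covers the number of genes only, and genes are not replicates, so it is no test of these shares. The genes of this class and of the high class below were named after their values were seen. Beside the 2 gap-side genes above they were KL911_005378 on chromosome 3 (916344 to 916625, 3.40 ± 1.17 TPM), KL911_002345 and KL911_002349 on chromosome 2, and KL911_004299 and KL911_005175 on chromosome 7. KL911_002345, at 934231 to 936576, was the lowest of chromosome 2, with 2.82, 1.82 and 3.51 TPM. KL911_004299, at 658397 to 659260, was the lowest of chromosome 7, with 3.61, 4.11 and 2.63 TPM. On the other chromosomes the lowest flanking genes were KL911_001318 on chromosome 5 with 13.5 ± 1.70 TPM, KL911_001962 on chromosome 6 with 19.0 ± 2.44 TPM and KL911_002976 on chromosome 1 with 23.8 ± 3.09 TPM.

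A mean TPM of over 1000 was found for 8 of 242 flanking genes (3.31%), near the share over all genes of 3.35% and that of comparison genes, 164 of 4711 (3.48%). The highest was KL911_004296 of chromosome 7 (663878 to 664123, plus strand), a gene of 246 bases, with 10627, 10165 and 10684 TPM in replicates 1, 4 and 5. Its level alone made up 19.5% of the summed TPM of the flanks. KL911_005387, 179 bases long on chromosome 1 at 397858 to 398036, had 4582, 4884 and 5294 TPM and was highest in replicate 5. Its neighbour on the same strand, KL911_005403 at 398161 to 399146, had 1432, 1625 and 1893 TPM in the same order of libraries.

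On chromosome 1 further genes of this class were KL911_005088 at 363984 to 364637, with 3695 ± 208 TPM, and KL911_005093 at 373359 to 374585, with 1207 ± 17.1 TPM, so that 4 of the 8 lay around this gap. The others were KL911_003884 on chromosome 3 at 937729 to 938183 with 2855 ± 163 TPM, KL911_005176 on chromosome 7 at 618422 to 619339 with 1241 ± 92.3 TPM, and KL911_001317 on chromosome 5 at 883955 to 884698 with 1013 ± 31.6 TPM. On chromosomes 2, 4 and 6 the highest flanking genes were lower, with 609 ± 17.2 TPM for KL911_002355, 274 ± 29.4 TPM for gene_2802 and 830 ± 110 TPM for KL911_001964. The high class had a median length of 699 bases in the flanks and 739 bases among comparison genes. The flanks held 5.39% ± 0.137 of all TPM (SD, n = 3) from 4.53% of the genes, and 10 genes held 53.5% of that amount.

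At the 30 kb limit the outermost flanking gene on each side of each gap had 7.56 to 265 TPM with a median of 53.4, and the first gene beyond it had 2.10 to 211 TPM with a median of 68.2, over 14 genes each. KL911_005400 and KL911_003861, neighbours on the minus strand of chromosome 3, overlapped by 44 bases, and reads in the shared bases fit either gene. Genes with a near-identical copy elsewhere were not looked for, and their levels would be uncertain.

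In the median of gene-by-gene ratios, the flanking genes were slightly lower in replicate 1 than in the other libraries. Their median TPM did not show this, at 70.6, 70.8 and 68.4 TPM in replicates 1, 4 and 5. Counts were scaled to CPM (counts scaled to a common library size) with TMM, which evens out library composition, and genes with a mean of at least 10 CPM were compared. Over 225 flanking genes the median log2 ratio was -0.08 for replicate 1 over replicate 4 and -0.07 for replicate 1 over replicate 5, which are levels 0.944 and 0.950 times those of the other library. Over 4168 comparison genes the same medians were 0.005 and -0.004. Replicate 1 was the lowest library for 125 of the 225 flanking genes (55.6%) and for 1221 of the 4168 comparison genes (29.3%).

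By median this shift was found along most flanks, in uneven size. The median ratio of replicate 1 over replicate 4 was below 0 in 14 of 14 flanks, from -0.12 to -0.03, and that of replicate 1 over replicate 5 in 13 of 14, from -0.17 to 0.01. Replicate 4 over replicate 5 was below 0 in 6 of 14. By chromosome, both median ratios of replicate 1 were below 0 on 7 of 7 chromosomes in the flanks. They were weakest on chromosome 7, at -0.04 each. There 56.2% of the tested flanking genes were lower in replicate 1 than in replicate 4, and 53.1% lower than in replicate 5. Among comparison genes the chromosome medians stayed between -0.03 and 0.04. The shift was present up to 50 kb from the gap, with -0.05 and -0.04 at 30 to 50 kb, and turned to 0.05 and 0.02 at 50 to 100 kb. Genes within 50 kb of a chromosome end had medians of -0.04 and 0.01. It is a difference of 1 library from 2 others, noticed in these data, and no test over samples applies. The level difference between flanking and comparison genes was 0.35 without replicate 1.

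**Figure D5:**
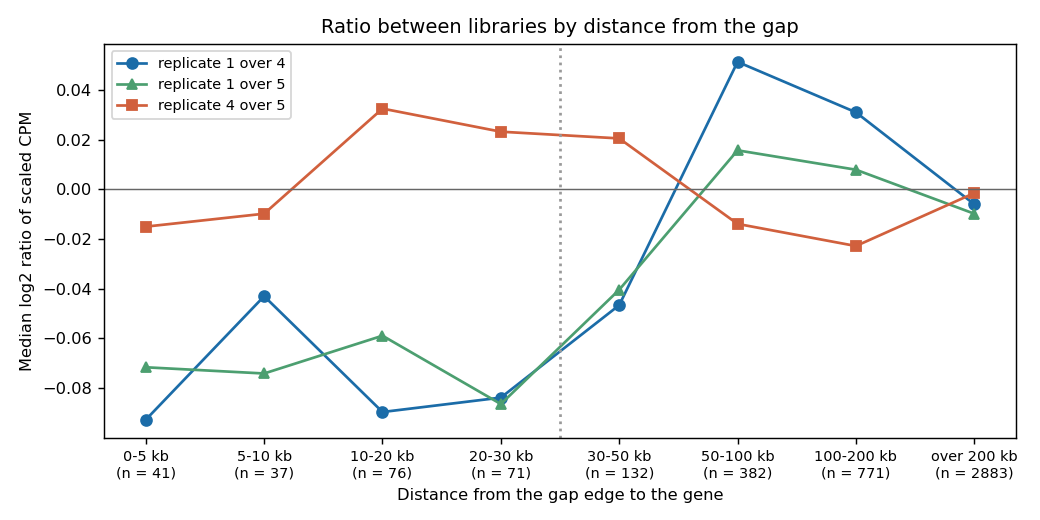
Median log2 ratio of TMM-scaled CPM between libraries by distance from the gap edge (kb), over genes with a mean of at least 10 CPM; the dotted line is the 30 kb limit. Both ratios of replicate 1 lie between -0.09 and -0.04 up to 50 kb and at or above -0.01 beyond it, while replicate 4 over replicate 5 stays between -0.02 and 0.03.

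None of the 225 flanking genes tested was called as varying between libraries. Each gene's counts were set against counting error by a chi-square test with Benjamini-Hochberg adjustment over all 4578 genes tested, and calls needed an adjusted p under 0.05 together with at least a 2-fold ratio of highest to lowest library. This called 0 of 225 flanking genes, where the share over all genes was 0.633%, and 24 of 4168 comparison genes. The ratio alone decided this: the highest among the 225 was 1.80 with TMM scaling, so leaving out the adjustment could not change the count. At an unadjusted p under 0.05 and the same ratio it was 0 with TMM, median-of-ratios and library-total scaling. Without the minimum ratio 190 of 225 flanking genes exceeded counting error (84.4%), where the share over all genes was 81.4%. The median ratio of highest to lowest library was 1.13 in both sets.

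The largest ratio among the tested flanking genes, also named after its values were seen, was 1.80, in gene_2816 on chromosome 4 at 870430 to 871572, with 16.1, 14.5 and 26.1 CPM in replicates 1, 4 and 5. The gap-side gene KL911_005389 followed with 1.65. Replicate 5 was highest in both. Among the 17 flanking genes under the CPM minimum, KL911_004292 on chromosome 7 at 669038 to 670684 was singled out after its values were seen. It had 224, 752 and 58 counts, or 4.16, 10.6 and 1.05 TPM, a 10.1-fold ratio, with replicate 4 highest. Its neighbours KL911_004293 and KL911_004291 had ratios of 1.15 and 1.05.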

How the data were processed

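Polyadenylated RNA was measured in 3 libraries of 1 group. The deposited counts are featureCounts 2.0.1 counts over gene features, run by the authors as paired-end with the strand set to 1, per the file headers, although the labels describe single-end reads. The tools HTSeq, deepTools, SAMtools and HISAT2 2.2.1 are listed, without roles, per the submitters' processing notes. The deposited TPM values are the authors' own. Recomputed from counts and lengths, TPM was within 1% for all 242 flanking genes in each library. The 3 kinds of deposited table held equal counts for all 5345 genes.

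Chromosome ends were taken as base 1 and the last annotated base. For each library the median of log2(TPM + 1), that is with a pseudocount of 1, was taken without a filter on low values. Scaling used edgeR 4.0.16 (TMM) and DESeq2 1.42.0 (median-of-ratios size factors) in R 4.3.3. Single-group data allow no contrast, so no contrast test was run. Other steps ran in Python 3.11.15 with pandas 2.3.3, scipy 1.17.1, numpy 2.4.6 and, for plots, matplotlib 3.10.9. The chi-square calls and the difference of medians were tested on simulated data, and the placement of genes around the gaps was not. Apart from planted changes, the simulated counts had no spread between libraries beyond counting error, unlike most tested genes here. The simulation thus cannot show how the calls behave under such spread. A floor of 3 counts (0.0881, 0.0671 and 0.0869 CPM in replicates 1, 4 and 5) covers counting error only, and PCR reads are not independent molecules. The binomial intervals cover the number of genes only and no counting error. Flanking genes and classes were chosen with earlier results of these data known. Genes named by rule are the 14 beside the gaps, the highest and lowest flanking gene of each chromosome, and any called as varying. Others were named after their values were seen. Promoters and other sequences were not used here. Alternatives covered the pseudocount, low values, window, comparison set, length correction, chromosomes, replicates, scaling and limits.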

Additional observations from a re-analysis of the deposited data

How the results depend on the processing

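The flanking genes lay above comparison genes under 22 of 22 settings, with log2 differences from 0.14 to 0.65, none of which carries a test. It moved by more than the SD to 0.65 within 10 kb, 0.51 within 20 kb and 0.29 within 50 kb of the gap. It was 0.28 among genes of at least 1 TPM, 0.27 with CPM in place of TPM and 0.26 among genes of median length or longer. Leaving out chromosomes 1, 2, 3 and 5 in turn gave 0.24, 0.43, 0.25 and 0.47. Among genes with an upstream spacing over 200 bases it was 0.14. Leaving out 1 replicate gave 0.32 to 0.36.

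With a pseudocount of 10 the differences at 0 to 5, 5 to 10 and 10 to 20 kb were 0.25, 0.85 and 0.25. The one at 20 to 30 kb ranged from -0.013 without replicate 5 to 0.065 without replicate 1. Left minus right became 0.078 without chromosome 2, and was -0.33, -0.41, -0.042, -0.11 and -0.31 without chromosomes 1, 4, 5, 6 and 7. Away minus toward was 0.16 without the 14 gap-side genes. The differences by chromosome kept their direction when 1 replicate was left out.

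Members varying between libraries numbered 2 with no filter beyond 1 count (KL911_004292 and KL911_005378), 4 at a ratio of at least 1.5, and 0 to 1 when 1 replicate was left out, the 1 being KL911_004292 without replicate 5. Flanking genes under 1 TPM numbered 0, under 10 TPM 11, and over 500 TPM 17, as the construction of these limits implies. The spacing ratio of flanking to comparison genes, 2.45, was 2.10 to 3.73 under 11 settings, and the shift of replicate 1 kept its direction under 20 of 20. The settings on these last 2, on gap-side genes for the level difference, on upstream spacing and on gene IDs were chosen after seeing the data. What caused these changes was not tested. No paired analysis was possible because there is only 1 group of samples.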
